A study of Mus musculus with 12 samples.

Results

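A set of 36 genes of glycolysis and the hypoxia response was followed at the RNA level in mouse embryonic stem cells. The genes were taken by symbol from a fixed list of transporters, glycolytic enzymes, regulators of glycolysis, and genes of the hypoxia-inducible factor (HIF). All 36 of 36 were among the 20529 genes of the deposited table and all 36 passed the filter on low counts, which left 20486 genes tested.

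The cells were embryonic stem cells of the 129S6/SvEvTac strain that carried the reporter GFP_5xT71BS and, in all 4 groups, a stable FLAG-Cas9 construct. They were kept on gelatin in medium with 15% serum, LIF, 1 mM pyruvate and 2 mM glutamine at 37 °C under 5% CO2, and the oxygen level is not given in the labels. The groups were control cells overexpressing Cas9 only, Trim71-/- cells overexpressing Cas9 only, control cells overexpressing Tnrc6a, and Trim71-/- cells overexpressing Tnrc6a, with 3 libraries each. Trim71 is an RNA-binding protein of stem cells that represses target mRNAs. Tnrc6a (GW182) is the partner of Argonaute that carries deadenylases to mRNAs bound by microRNAs. The libraries came from triplicate wells, and nothing in the labels says that the wells came from separate lines or clones, so p-values measure the spread between these wells, which may be technical.

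Glycolysis splits glucose into pyruvate in the cytosol, and lactate dehydrogenase turns pyruvate into lactate that leaves the cell through a monocarboxylate transporter. HIF is a pair of proteins whose alpha subunit is marked for destruction by the prolyl hydroxylases of the Egln family when oxygen is plentiful. When oxygen is short, HIF raises most glycolytic genes together with genes of vessel growth, mitophagy and collagen hydroxylation. Mouse embryonic stem cells in serum and LIF are known for using glycolysis alongside respiration.

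Total counts per library ran from 20758151 to 31552915. Tnrc6a RNA averaged 10.4 ± 0.104 and 11.4 ± 0.770 RPKM (reads per kilobase of gene length, scaled to library size) in the Cas9 control and Cas9 Trim71-/- groups, against 261 ± 9.39 and 285 ± 9.87 RPKM in the Tnrc6a groups. Trim71 RNA averaged 32.8 ± 1.52 RPKM in Cas9 control and 29.5 ± 1.52 RPKM in Cas9 Trim71-/- libraries, so the RNA level does not by itself check the genotype label. In 9 libraries the free text on input material names other cells than the title does, so titles and the overexpression tag decided the grouping. Stem cell markers were present in every group and moved with the groups, with a summed level of 9 genes of 6003 to 6060 CPM (counts scaled to library size) in Cas9 control, 6851 to 6926 CPM in Cas9 Trim71-/-, 3491 to 3537 CPM in Tnrc6a control and 5003 to 5098 CPM in Tnrc6a Trim71-/- libraries. Of these 9, Zfp42 lies on chromosome 8, which is taken up below. Markers of other cell types moved with the groups too. The summed level of 14 endoderm markers was 945 to 973 CPM in Cas9 control, 366 to 372 CPM in Cas9 Trim71-/-, 1828 to 1994 CPM in Tnrc6a control and 571 to 592 CPM in Tnrc6a Trim71-/- libraries. That of 7 trophoblast markers was 53.5 to 55.1, 49.2 to 52.6, 250.6 to 285.7 and 146 to 149 CPM, and that of 8 two-cell-like markers 15.0 to 17.5, 0.968 to 1.81, 345 to 353 and 126 to 137 CPM, in the same order. Those sums cover the markers that passed the filter, which were 14 of 15, 7 of 8 and 8 of 9 listed, and none of these was at 0 in any group. The other listed markers were not tested, and the part of these shifts in the results below was not tested.

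Of the 16 glycolytic enzymes, 11 (68.8%) fell in Trim71-/- cells with Cas9 and 8 (50%) with Tnrc6a, where 19.1% and 19.0% of all genes tested fell. In Tnrc6a cells against Cas9 cells, 11 of them (68.8%) fell in either genotype, where 33.1% of all genes fell in control and 30.9% in Trim71-/- cells. Of the 10 HIF target genes outside glycolysis, 6 (60%) fell without Trim71 with either construct. With Tnrc6a, 6 of the 10 rose and 2 fell in control cells, and 5 rose and 4 fell in Trim71-/- cells, where 30.4% and 32.0% of all genes rose. The largest differences among well-counted members were those of P4ha2, a prolyl hydroxylase of collagen, which was 2.7-fold lower in Trim71-/- than in control cells with Cas9 and 3.23-fold higher with Tnrc6a than with Cas9 in control cells. In these bulk libraries, fewer cells of a type and less RNA per cell cannot be told apart. Below, a gene rose or fell when its Benjamini-Hochberg adjusted p over all 20486 genes was under 0.05 in edgeR's quasi-likelihood test of the counts. Each log2 fold change is followed by its standard error. The members were not matched to all genes for level, and small changes are called more readily at high counts. Among 16728 genes with at least 1 CPM in 6 libraries, 3609 genes and 19 members fell without Trim71 with Cas9.

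With Cas9, 20 of 36 members (55.6%) were lower in Trim71-/- than in control cells, where 19.1% of all genes tested were, and 2 (5.56%) were higher, where 17.1% of all genes were. With Tnrc6a, 16 members (44.4%) were lower against 19.0% of all genes, and 5 (13.9%) were higher against 20.0%. The median log2 fold change of the members was -0.20 with Cas9 and -0.16 with Tnrc6a, beside -0.01 and 0.00 (0.0025) over all genes tested. These comparisons share no libraries, and 14 members (38.9%) fell in both, where 11.7% of all genes did. They were Slc16a3, Pfkl, Aldoa, Tpi1, Pgk1, Eno1, Pkm, Ldha, Pfkfb3, Bnip3, P4ha1, P4ha2, Kdm3a and Mxi1. The 2 members that rose with Cas9, Egln1 and Ankrd37, lie on chromosome 8, which is taken up below. The count of 2 rose to 4 without Cas9 Trim71-/- replicate 3. The count of 5 with Tnrc6a fell to 3 without any 1 of Tnrc6a control replicates 1 to 3 or Tnrc6a Trim71-/- replicates 1 and 2.

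With Tnrc6a against Cas9, 15 of 36 members (41.7%) were lower in control cells, where 33.1% of all genes tested were, and 10 (27.8%) were higher, where 30.4% of all genes were. In Trim71-/- cells 17 members (47.2%) were lower against 30.9% of all genes, and 12 (33.3%) were higher against 32.0%. The shares of members that rose were thus close to those of all genes. The median log2 fold change of the members was -0.09 in control and -0.06 in Trim71-/- cells, beside -0.02 and 0.02 over all genes. The pair of Tnrc6a comparisons share no libraries, and 13 members (36.1%) fell in both, where 26.6% of all genes did. They were Hk2, Pfkp, Pfkm, Aldoa, Gapdh, Pgk1, Pgam1, Eno1, Pkm, Ldha, Pdk1, Kdm3a and Higd1a. A further 9 members (25%) rose in both, where 25.5% of all genes did, namely Slc2a1, Hk1, Aldoc, Pfkfb4, Vegfa, Bnip3, P4ha1, P4ha2 and Adm. Each Tnrc6a comparison shares libraries with each genotype comparison, so their values are given side by side and not joined.

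**Figure D1:**
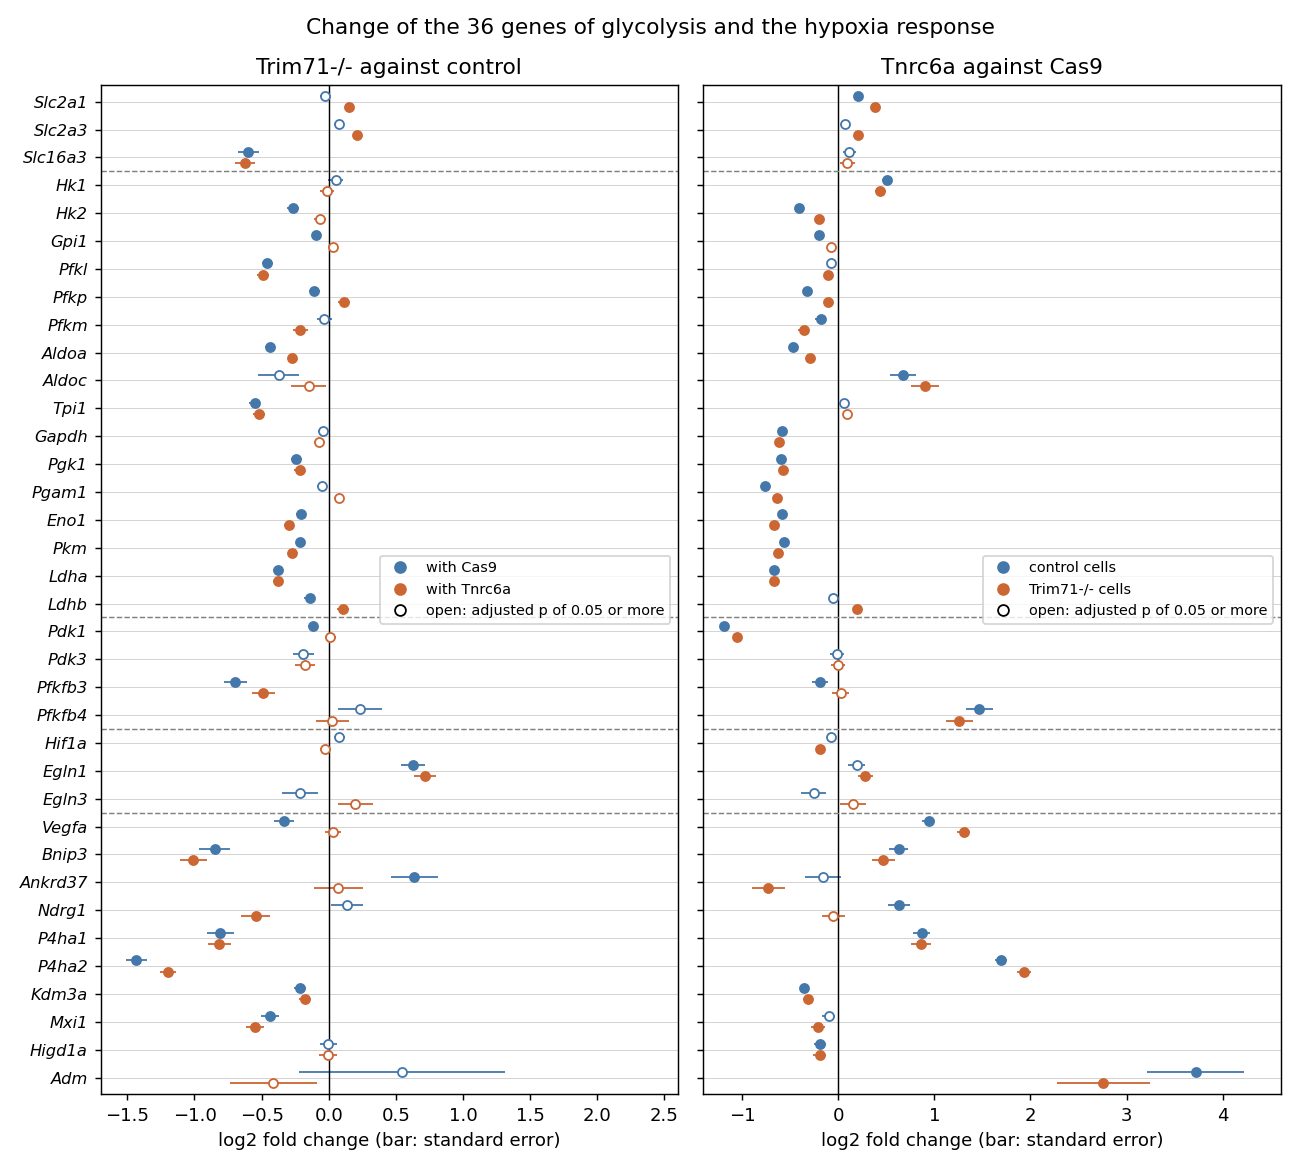
Log2 fold change with its standard error of the 36 members, in order of role (dashed lines part transport, enzymes, regulators, HIF and prolyl hydroxylases, and other HIF targets), for Trim71-/- against control (left) and Tnrc6a against Cas9 (right); filled points passed an adjusted p of 0.05. The enzymes Gapdh to Ldha lie left of 0 in the right panel, and P4ha2, P4ha1 and Bnip3 lie left of 0 in the left panel and right of 0 in the right panel.

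Of the 3 transport genes, the glucose transporters and the lactate exporter behaved differently. Slc16a3, the monocarboxylate transporter MCT4 that exports lactate, was low at under 6 RPKM and fell without Trim71. In Cas9 cells, Slc16a3 stood at 4.18, 4.62 and 4.89 RPKM in control and 3.05, 3.05 and 2.94 RPKM in Trim71-/- libraries, and in Tnrc6a cells at 4.62, 5.11 and 5.13 RPKM and 3.17, 3.26 and 3.22 RPKM. Every Trim71-/- library lay below every control library with the same construct. It differed by a log2 fold change of -0.60 ± 0.08 with Cas9 (adjusted p = 1.35e-08) and -0.62 ± 0.07 with Tnrc6a (adjusted p = 1.53e-09), and it was 0.12 ± 0.07 and 0.09 ± 0.08 for Tnrc6a against Cas9, neither of which passed. Slc2a3, the high-affinity neuronal-type glucose transporter GLUT3, was the more abundant transporter per length at 148 ± 1.81 RPKM in Cas9 control libraries, and Slc2a1, the widely expressed GLUT1, averaged 99.3 ± 3.19 RPKM. With Tnrc6a, both were higher in Trim71-/- than in control cells, Slc2a1 by 0.15 ± 0.04 and Slc2a3 by 0.21 ± 0.03 on the log2 scale. In Cas9 cells the corresponding values were -0.03 ± 0.04 and 0.08 ± 0.04, neither of which passed. The highest means of both transporters were those of the Tnrc6a Trim71-/- group, at 127 ± 1.58 and 181 ± 5.28 RPKM.

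Among the 16 glycolytic enzymes, 11 fell (68.8%, against 19.1% of all genes) and none rose (against 17.1%) in Trim71-/- cells with Cas9. With Tnrc6a 8 fell (50%, against 19.0%) and 2 rose (12.5%, against 20.0%). Tnrc6a cells against Cas9 cells gave 11 lower (68.8%, against 33.1%) and 2 higher (12.5%, against 30.4%) in control cells, and 11 lower (68.8%, against 30.9%) and 3 higher (18.8%, against 32.0%) in Trim71-/- cells. Stem cell markers fell with Tnrc6a as well, 9 of 9 in control and 7 of 9 in Trim71-/- cells, whereas 6 and 7 of 9 rose and 2 fell without Trim71 with Cas9 and with Tnrc6a. Zfp42, which rose by 0.84 ± 0.03 and 1.21 ± 0.03 without Trim71, lies on chromosome 8, whose median was 0.49 and 0.52. Dppa5a fell by 0.84 ± 0.04 and 0.78 ± 0.04. The part of stem cell markers in the values of the enzymes was not tested. The summed level of the 16 was 1675 ± 21.2 RPKM in Cas9 control, 1408 ± 46.1 in Cas9 Trim71-/-, 1192 ± 15.0 in Tnrc6a control and 1038 ± 5.22 RPKM in Tnrc6a Trim71-/- libraries (mean ± SD, n = 3), with no overlap between groups. As a share of the RPKM of all genes, the sum was 0.384% ± 0.00598, 0.315% ± 0.0062, 0.333% ± 0.00762 and 0.280% ± 0.00212 in the same order, again with no overlap. The middle groups thus changed places between these scales, while Cas9 control was highest and Tnrc6a Trim71-/- lowest on both. No test was made of this sum.

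The upper steps prepare glucose for splitting. Hk1 and Hk2 are hexokinases, which trap glucose as its phosphate, and they moved in opposite directions with Tnrc6a. In Cas9 cells, Hk1 stood at 4.25, 4.04 and 4.17 RPKM in control and 4.07, 4.38 and 4.52 RPKM in Trim71-/- libraries, and in Tnrc6a cells at 6.08, 5.67 and 6.0 RPKM and 5.71, 5.98 and 5.86 RPKM. All Tnrc6a libraries lay above all Cas9 libraries for Hk1, with a log2 fold change of 0.51 ± 0.05 in control and 0.44 ± 0.05 in Trim71-/- cells (adjusted p = 7.44e-11 and 2.87e-09). Hk2, the hexokinase most often described as a HIF target, fell with Tnrc6a by 0.40 ± 0.04 in control and by 0.20 ± 0.04 in Trim71-/- cells on the log2 scale. It also fell without Trim71 with Cas9, by 0.26 ± 0.04, and with Tnrc6a the difference was -0.06 ± 0.04 and did not pass.

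Gpi1, which interconverts glucose and fructose phosphates, averaged 65.2 ± 1.66 RPKM in Cas9 control cells and fell by 0.19 ± 0.04 with Tnrc6a in these cells. Its call in Trim71-/- cells with Cas9, at -0.09 ± 0.04, was lost without any 1 of 4 libraries, namely Cas9 control replicate 1 (-0.08, adjusted p = 0.165) or 2 (-0.09, 0.0984) and Cas9 Trim71-/- replicate 1 (-0.10, 0.0609) or 2 (-0.07, 0.202). Phosphofructokinase, the committed step of glycolysis, has 3 isoforms, and they differed. Pfkl, the liver-type isoform, averaged 24.5 ± 0.377 RPKM in Cas9 control and 17.9 ± 1.06 RPKM in Cas9 Trim71-/- libraries, and 23.4 ± 0.802 and 16.7 ± 0.545 RPKM in the same genotypes with Tnrc6a. It fell without Trim71 with either construct, by 0.46 ± 0.04 and 0.49 ± 0.04 on the log2 scale (adjusted p = 5.54e-12 and 5.41e-13). Pfkm, the muscle-type isoform, fell with Tnrc6a by 0.18 ± 0.06 in control and by 0.36 ± 0.06 in Trim71-/- cells. Without Tnrc6a control replicate 2 its call in control cells was lost, at -0.13 and an adjusted p of 0.0862. Pfkp, the platelet-type isoform, fell with Tnrc6a in control cells by 0.32 ± 0.04.

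The remaining calls of Pfkl and Pfkp were small and fragile. In Trim71-/- cells, Tnrc6a against Cas9 gave -0.10 ± 0.04 for Pfkl and -0.10 ± 0.04 for Pfkp. The Pfkl call was lost without Cas9 Trim71-/- replicate 2 (-0.10, adjusted p = 0.0754), Cas9 Trim71-/- replicate 3 (-0.06, 0.235) or Tnrc6a Trim71-/- replicate 3 (-0.08, 0.184). The Pfkp call was lost without Cas9 Trim71-/- replicate 1 (-0.08, adjusted p = 0.150) or 3 (-0.08, 0.114) and without Tnrc6a Trim71-/- replicate 1 (-0.09, 0.111) or 2 (-0.08, 0.133). Pfkp was called lower in Trim71-/- cells with Cas9, at -0.11 ± 0.04, and higher with Tnrc6a, at 0.11 ± 0.04. With Cas9 that call was lost without any 1 of Cas9 control replicates 1 to 3 (adjusted p = 0.135, 0.0770 and 0.0842) or Cas9 Trim71-/- replicate 2 (0.281), with values between -0.07 and -0.11. With Tnrc6a it was lost without any 1 of the 6 Tnrc6a libraries, at 0.07 to 0.12 and adjusted p values from 0.0508 to 0.253.

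The middle steps split the sugar and oxidise it. Aldoa, the main aldolase, was the second most abundant enzyme per length after Pkm, with counts on near-identical copies of other enzymes left out. It averaged 341 ± 8.10 RPKM in Cas9 control, 251 ± 7.54 in Cas9 Trim71-/-, 247 ± 4.87 in Tnrc6a control and 205 ± 2.27 in Tnrc6a Trim71-/- libraries. Aldoa fell in each of the 4 comparisons, by 0.44 ± 0.03 and 0.27 ± 0.03 without Trim71 and by 0.47 ± 0.03 and 0.30 ± 0.03 with Tnrc6a on the log2 scale. Aldoc, the brain-type aldolase, was low and went the other way with Tnrc6a. In Cas9 cells, Aldoc stood at 1.66, 1.15 and 1.06 RPKM in control and 0.924, 1.06 and 1.03 RPKM in Trim71-/- libraries, and in Tnrc6a cells at 1.93, 2.08 and 2.21 RPKM and 1.87, 1.81 and 1.93 RPKM. The Tnrc6a libraries lay above the Cas9 libraries of either genotype. The log2 fold change of Aldoc was 0.68 ± 0.14 in control and 0.90 ± 0.15 in Trim71-/- cells (adjusted p = 4.28e-05 and 8.92e-07).

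Tpi1, triosephosphate isomerase, separated the genotypes, while the libraries of the constructs overlapped within either genotype. In Cas9 cells, Tpi1 stood at 59.4, 58.9 and 63.4 RPKM in control and 38.1, 41.9 and 44.1 RPKM in Trim71-/- libraries, and in Tnrc6a cells at 64.2, 63.0 and 62.1 RPKM and 44.8, 43.9 and 43.4 RPKM. Each Trim71-/- library was below 46 RPKM and each control library above 58 RPKM. On the log2 scale the difference was -0.55 ± 0.04 with Cas9 and -0.52 ± 0.04 with Tnrc6a (adjusted p = 5.02e-14 and 1.63e-13). For Tnrc6a against Cas9 it was 0.06 ± 0.04 and 0.09 ± 0.04, neither of which passed. Under some other settings Tpi1 was called higher with Tnrc6a. With relative log expression factors it gave 0.10 in control (adjusted p = 0.0411) and 0.11 in Trim71-/- cells (0.0350). Upper-quartile factors gave 0.12 in Trim71-/- cells (0.0142).

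Of the lower steps, from the oxidation of glyceraldehyde phosphate to lactate, Gapdh, Pgk1, Pgam1, Eno1, Pkm and Ldha each fell with Tnrc6a in both genotypes, and Ldhb in neither. Gapdh is glyceraldehyde phosphate dehydrogenase and a common reference gene in PCR. In Cas9 cells, Gapdh stood at 40.2, 40.7 and 37.3 RPKM in control and 38.2, 37.7 and 39.0 RPKM in Trim71-/- libraries, and in Tnrc6a cells at 26.2, 26.4 and 26.1 RPKM and 25.6, 24.0 and 25.3 RPKM. Its Tnrc6a libraries were all below its Cas9 libraries, and it was 1.5-fold lower with Tnrc6a in control and 1.53-fold lower in Trim71-/- cells (log2 fold change -0.59 ± 0.04 and -0.62 ± 0.04, adjusted p = 2.42e-16 and 6.71e-17). The genotype differences of Gapdh were -0.04 ± 0.04 and -0.07 ± 0.04 and did not pass. Pgam1, phosphoglycerate mutase, had the largest fall of any enzyme with Tnrc6a in control cells. In Cas9 cells, Pgam1 stood at 221, 225 and 224 RPKM in control and 207, 220.5 and 219 RPKM in Trim71-/- libraries, and in Tnrc6a cells at 130.2, 131 and 133 RPKM and 139.6, 136 and 140.4 RPKM. Every Tnrc6a library of Pgam1 lay far below every Cas9 library. With Tnrc6a it changed by -0.76 ± 0.04 on the log2 scale in control and -0.64 ± 0.04 in Trim71-/- cells (adjusted p = 1.78e-22 and 1.08e-19).

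Pgk1, Eno1, Pkm and Ldha fell in each of the 4 comparisons. Pgk1, phosphoglycerate kinase, makes the first ATP of the pathway. In Cas9 cells, Pgk1 stood at 77.9, 77.7 and 79.9 RPKM in control and 62.9, 67.2 and 69.4 RPKM in Trim71-/- libraries, and in Tnrc6a cells at 52.6, 51.9 and 51.4 RPKM and 44.0, 44.6 and 45.5 RPKM. Its 4 groups did not overlap, and the order was the same for the other 3 genes, with Cas9 control highest and Tnrc6a Trim71-/- lowest. Pgk1 had a log2 fold change of -0.24 ± 0.04 and -0.22 ± 0.04 without Trim71, and -0.60 ± 0.04 and -0.57 ± 0.04 with Tnrc6a. Eno1, enolase, came next in the pathway after Pgam1. In Cas9 cells, Eno1 stood at 172, 162 and 165 RPKM in control and 139.8, 141 and 152 RPKM in Trim71-/- libraries, and in Tnrc6a cells at 116, 108 and 111 RPKM and 91.1, 91.0 and 90.3 RPKM. The log2 fold change of Eno1 was -0.21 ± 0.04 and -0.30 ± 0.04 without Trim71, and -0.58 ± 0.04 and -0.67 ± 0.04 with Tnrc6a.

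Pkm, pyruvate kinase, was the most abundant of the enzymes per length in each group. In Cas9 cells, Pkm stood at 379.6, 366 and 369.5 RPKM in control and 313, 318 and 332 RPKM in Trim71-/- libraries, and in Tnrc6a cells at 254, 251 and 250.3 RPKM and 209, 209.6 and 206 RPKM. The 4 groups did not overlap. Pkm had a log2 fold change of -0.21 ± 0.03 and -0.27 ± 0.03 without Trim71, and -0.56 ± 0.03 and -0.62 ± 0.03 with Tnrc6a. Ldha, the lactate dehydrogenase subunit known as a HIF target, showed near-equal steps in both genotypes. In Cas9 cells, Ldha stood at 178, 177 and 182 RPKM in control and 129.7, 139.9 and 144 RPKM in Trim71-/- libraries, and in Tnrc6a cells at 116, 112 and 109.8 RPKM and 88.6, 87.1 and 84.4 RPKM. For Ldha the log2 fold change was -0.38 ± 0.04 and -0.38 ± 0.04 without Trim71 (adjusted p = 2.63e-11 and 3.1e-11). With Tnrc6a it was -0.67 ± 0.04 and -0.67 ± 0.04 (adjusted p = 1.39e-19 and 2.13e-19). Ldhb, the other subunit, averaged 75.3 ± 1.14, 68.2 ± 3.09, 72.8 ± 1.92 and 78.4 ± 2.21 RPKM in the 4 groups in the order used above. It rose with Tnrc6a in Trim71-/- cells by 0.20 ± 0.04 and gave -0.05 ± 0.04 in control cells, which did not pass. Without Cas9 Trim71-/- replicate 2 its call in Trim71-/- cells with Cas9, at -0.14 ± 0.04, was lost (-0.11, adjusted p = 0.0759). Its call with Tnrc6a, at 0.11 ± 0.04, was lost without any 1 of Tnrc6a control replicates 1 to 3 (adjusted p = 0.218, 0.0956 and 0.132) or Tnrc6a Trim71-/- replicates 1 and 2 (0.0549 and 0.361), with values from 0.06 to 0.12.

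Relative levels of paired genes, as ratios of RPKM and without a test, set the isoforms side by side. Hk2 to Hk1 was 5.20 ± 0.112 in Cas9 control, 4.17 ± 0.108 in Cas9 Trim71-/-, 2.77 ± 0.0767 in Tnrc6a control and 2.68 ± 0.0989 in Tnrc6a Trim71-/- libraries (mean ± SD, n = 3). The Cas9 groups stood apart from each other and from both Tnrc6a groups, which overlapped. Ldhb to Ldha was 0.421 ± 0.00512, 0.496 ± 0.0377, 0.647 ± 0.0241 and 0.905 ± 0.0293 in the same order, with no overlap of any groups. Pfkp to Pfkl was 0.368 ± 0.00611 and 0.470 ± 0.0364 with Cas9 and 0.310 ± 0.00817 and 0.471 ± 0.0383 with Tnrc6a, so that the Trim71-/- groups lay above the control groups and overlapped each other. Slc2a3 to Slc2a1 was 1.5 ± 0.0552 and 1.61 ± 0.102 with Cas9 and 1.37 ± 0.0284 and 1.42 ± 0.0318 with Tnrc6a, where the genotypes overlapped with either construct and the Tnrc6a libraries lay below the Cas9 libraries.

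**Figure D2:**
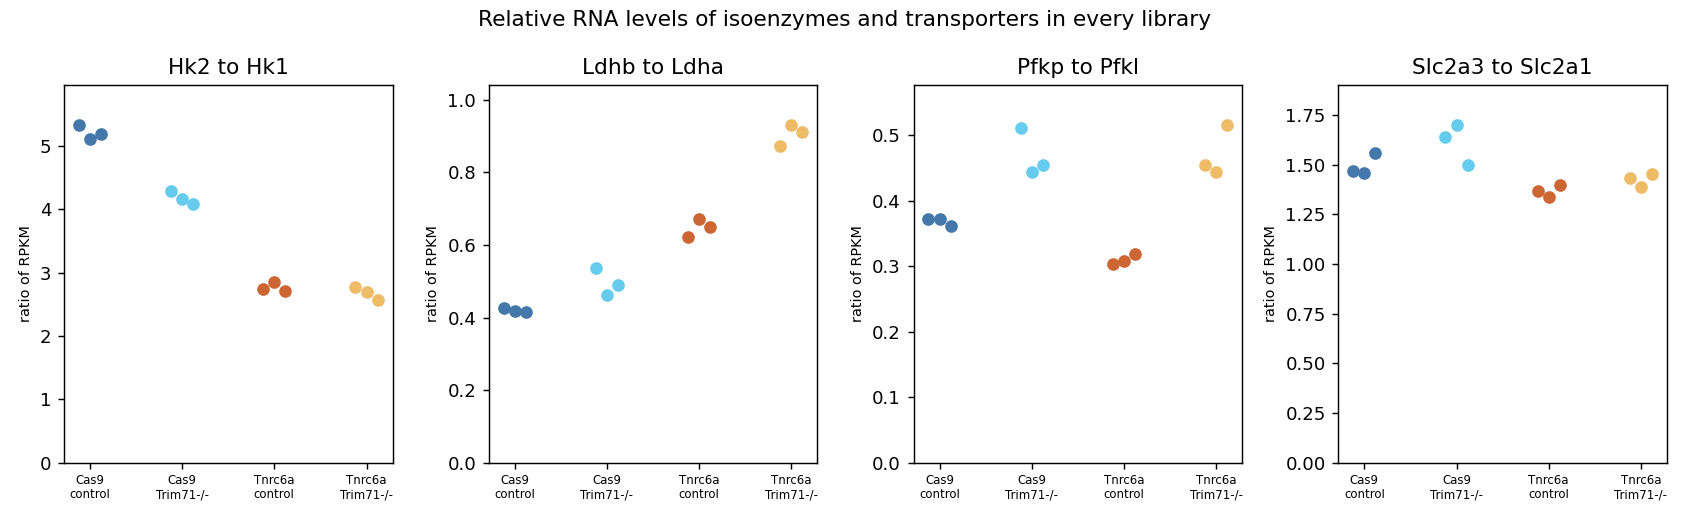
Ratio of the RPKM of a gene to that of its partner in every library, for hexokinases, lactate dehydrogenase subunits, phosphofructokinases and glucose transporters; each dot is 1 library and each axis starts at 0. Hk2 to Hk1 is near 5.20 in Cas9 control and near 2.77 in Tnrc6a control libraries, and Ldhb to Ldha runs from 0.421 to 0.905 across the group means.

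Of the 4 regulators, 2 act on the fate of pyruvate and 2 on the bisphosphate that activates phosphofructokinase. Pdk1 phosphorylates and shuts pyruvate dehydrogenase and is a classic HIF target. In Cas9 cells, Pdk1 stood at 25.4, 25.3 and 25.9 RPKM in control and 23.1, 24.0 and 23.4 RPKM in Trim71-/- libraries, and in Tnrc6a cells at 10.6, 11.7 and 11.3 RPKM and 11.4, 11.6 and 11 RPKM. It was the member with the largest fall with Tnrc6a, and its Tnrc6a libraries stood at less than 12 RPKM against more than 23 RPKM with Cas9. The fall was 2.27-fold in control and 2.08-fold in Trim71-/- cells (log2 fold change -1.18 ± 0.04 and -1.05 ± 0.04, adjusted p = 7.56e-27 and 7.35e-25). The genotype difference of Pdk1 was -0.12 ± 0.04 with Cas9, a call lost without Cas9 control replicate 3 (-0.11, adjusted p = 0.0728) or Cas9 Trim71-/- replicate 1 (-0.10, 0.0705), and 0.01 ± 0.04 with Tnrc6a, which did not pass. Pdk3, a related kinase, passed in none of the comparisons of the main fit. Its group means ran from 9.82 ± 1.15 to 11.2 ± 0.380 RPKM. Without Trim71 with Tnrc6a, Pdk3 was called lower under some other settings, such as relative log expression factors (-0.21, adjusted p = 0.0286) and DESeq2 (-0.21, 0.0478). So it was without Tnrc6a Trim71-/- replicate 3 (-0.28, 0.00423) and, with Cas9, without Cas9 Trim71-/- replicate 2 (-0.29, 0.0048).

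Pfkfb3 and Pfkfb4 make and degrade that bisphosphate, and they differed. Pfkfb3 was lower without Trim71. In Cas9 cells, Pfkfb3 stood at 2.54, 2.55 and 2.80 RPKM in control and 1.83, 1.57 and 1.44 RPKM in Trim71-/- libraries, and in Tnrc6a cells at 2.23, 2.26 and 2.47 RPKM and 1.70, 1.57 and 1.71 RPKM. Control and Trim71-/- libraries did not overlap. The fitted log2 fold change came to -0.70 ± 0.09 with Cas9 and -0.49 ± 0.09 with Tnrc6a (adjusted p = 1.01e-08 and 9.67e-06). A difference of -0.18 ± 0.08 with Tnrc6a in control cells was lost without Cas9 control replicate 2 (-0.20, adjusted p = 0.0523) or 3 (-0.13, 0.214) and without Tnrc6a control replicate 1 (-0.13, 0.224) or 2 (-0.14, 0.202). Pfkfb4 instead rose with Tnrc6a. In Cas9 cells, Pfkfb4 stood at 1.23, 0.716 and 0.792 RPKM in control and 0.955, 1.31 and 1.01 RPKM in Trim71-/- libraries, and in Tnrc6a cells at 2.87, 2.63 and 2.19 RPKM and 2.62, 2.71 and 2.48 RPKM. Its Tnrc6a libraries were all above 2 RPKM and its Cas9 libraries all below 1.5 RPKM. The log2 fold change was 1.47 ± 0.14 in control and 1.26 ± 0.14 in Trim71-/- cells (adjusted p = 5.13e-10 and 6.26e-09).

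Of the 3 genes that set HIF itself, Hif1a and Egln3 differed little and Egln1 rose without Trim71. Hif1a, the regulated alpha subunit, averaged 33.6 ± 0.438, 35.4 ± 2.01, 31.8 ± 1.33 and 31.2 ± 0.406 RPKM in the 4 groups. It fell by 0.18 ± 0.04 with Tnrc6a in Trim71-/- cells and did not pass in the other comparisons, with -0.08 ± 0.04 in control cells. HIF1A protein is set mainly after transcription, and no protein was measured here. Egln3, a prolyl hydroxylase that HIF induces, passed in none of them, with group means from 1.95 ± 0.0953 to 2.34 ± 0.401 RPKM.

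Egln1, the main oxygen sensor of the prolyl hydroxylases, was higher without Trim71. In Cas9 cells, Egln1 stood at 4.01, 3.60 and 4.10 RPKM in control and 5.70, 5.67 and 6.89 RPKM in Trim71-/- libraries, and in Tnrc6a cells at 4.88, 4.57 and 4.03 RPKM and 7.36, 7.99 and 6.78 RPKM. Trim71-/- and control libraries did not overlap. It differed by a log2 fold change of 0.63 ± 0.09 with Cas9 and 0.72 ± 0.08 with Tnrc6a (adjusted p = 1.3e-07 and 1.05e-09). Egln1 lies on chromosome 8, where the median of 664 genes with at least 5 CPM was 0.49 with Cas9 and 0.52 with Tnrc6a, so Egln1 was 0.13 and 0.20 above its chromosome. The part of the chromosome in its rise was not tested. With Tnrc6a in Trim71-/- cells Egln1 rose by 0.28 ± 0.08, though the libraries of the compared groups overlapped. In control cells it gave 0.20 ± 0.09, which did not pass. Some other settings called it higher there, such as relative log expression factors (0.24, adjusted p = 0.0203) and DESeq2 (0.24, 0.0287).

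The HIF target genes outside glycolysis ranged from Higd1a, with genotype differences near 0, to P4ha2. Of these 10, 6 fell (60%, against 19.1% of all genes) and 1 rose (10%, against 17.1%) in Trim71-/- cells with Cas9, and 6 fell (60%, against 19.0%) and none rose (against 20.0%) with Tnrc6a. In the Tnrc6a comparisons 6 rose (60%, against 30.4%) and 2 fell (20%, against 33.1%) in control cells, and 5 rose (50%, against 32.0%) and 4 fell (40%, against 30.9%) in Trim71-/- cells. P4ha2 and P4ha1, alpha subunits of the collagen prolyl hydroxylase that stabilises the collagen triple helix, and Bnip3, a mitochondrial receptor for mitophagy, were lower without Trim71 and higher with Tnrc6a.

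In Cas9 cells, P4ha2 stood at 4.18, 4.05 and 4.23 RPKM in control and 1.67, 1.37 and 1.55 RPKM in Trim71-/- libraries, and in Tnrc6a cells at 14.7, 12.4 and 13.2 RPKM and 5.67, 6.09 and 5.83 RPKM. The 4 groups did not overlap, with Tnrc6a control highest and Cas9 Trim71-/- lowest. P4ha2 was 2.7-fold lower in Trim71-/- cells with Cas9 and 2.29-fold lower with Tnrc6a (log2 fold change -1.43 ± 0.08 and -1.19 ± 0.06, adjusted p = 4.14e-19 and 7.05e-21). With Tnrc6a it was 3.23-fold higher in control and 3.81-fold higher in Trim71-/- cells (log2 fold change 1.69 ± 0.06 and 1.93 ± 0.08, adjusted p = 4.61e-26 and 5.44e-25). P4ha1 followed the same order of groups at a smaller span. In Cas9 cells, P4ha1 stood at 4.34, 3.21 and 3.77 RPKM in control and 2.11, 1.94 and 2.50 RPKM in Trim71-/- libraries, and in Tnrc6a cells at 7.55, 6.96 and 6.34 RPKM and 3.67, 3.99 and 4.19 RPKM. Its Cas9 control and Tnrc6a Trim71-/- libraries overlapped. P4ha1 had a log2 fold change of -0.81 ± 0.10 and -0.81 ± 0.09 without Trim71, and 0.87 ± 0.09 and 0.86 ± 0.10 with Tnrc6a, with adjusted p values of at most 3.43e-08.

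In Cas9 cells, Bnip3 stood at 3.64, 3.75 and 3.66 RPKM in control and 2.12, 2.21 and 1.77 RPKM in Trim71-/- libraries, and in Tnrc6a cells at 6.16, 5.50 and 5.43 RPKM and 2.77, 2.89 and 2.83 RPKM. The 4 groups of Bnip3 did not overlap, and Cas9 control lay above Tnrc6a Trim71-/-. The log2 fold change of Bnip3 was -0.85 ± 0.12 and -1.01 ± 0.10 without Trim71 (adjusted p = 7.38e-08 and 3.54e-11). With Tnrc6a it was 0.63 ± 0.10 in control and 0.47 ± 0.12 in Trim71-/- cells (adjusted p = 5.53e-07 and 0.000624). Endoderm markers, which include basement membrane collagens, moved in the same directions as these 3 genes. Of 14, all 14 fell in both genotype comparisons, where 19.1% and 19.0% of all genes fell. With Tnrc6a, 14 rose in control and 11 in Trim71-/- cells, where 30.4% and 32.0% of all genes rose. All 8 two-cell-like markers also fell in both genotype comparisons and rose in both Tnrc6a comparisons. Of 7 trophoblast markers, 4 fell and 1 rose without Trim71 with Cas9, and 6 fell and 1 rose with Tnrc6a. For Tnrc6a against Cas9, 7 of them rose in control and 5 in Trim71-/- cells. The part of endoderm, two-cell-like or trophoblast cells in the values of P4ha1, P4ha2 and Bnip3 was not tested.

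**Figure D3:**
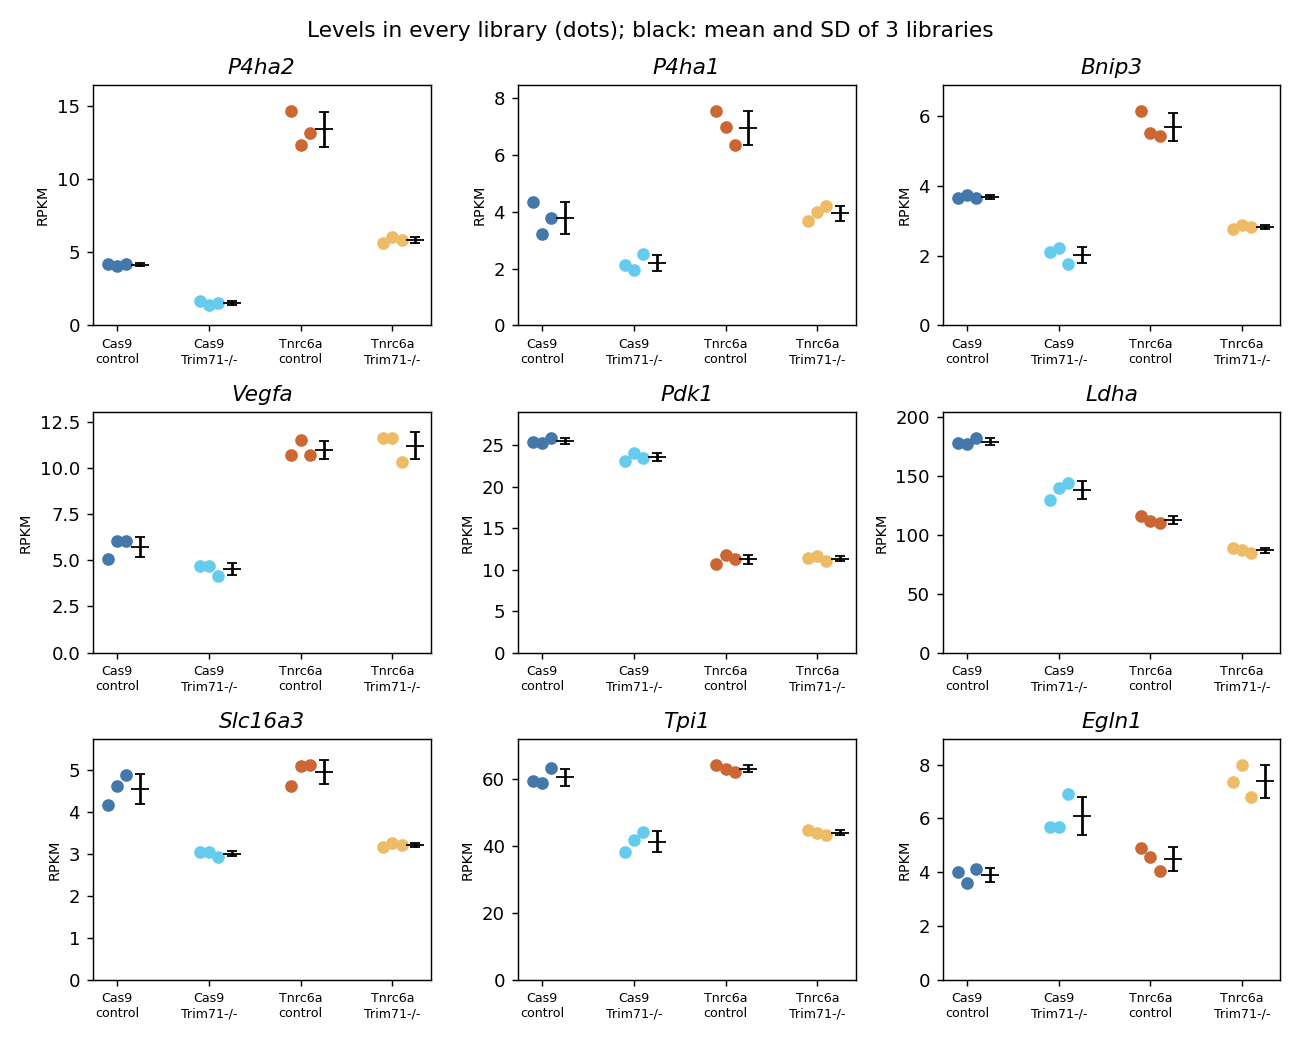
RPKM of 9 members in every library (dots, coloured by group) with the mean and SD of 3 libraries in black; each axis starts at 0. P4ha2, P4ha1 and Bnip3 are lowest in Cas9 Trim71-/- and highest in Tnrc6a control libraries, Pdk1 and Ldha are lower in the Tnrc6a groups, and Slc16a3, Tpi1 and Egln1 part the genotypes.

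Promoter sequences are given for members that moved in opposite directions with Tnrc6a: P4ha2, P4ha1 and Bnip3, which rose, and Pdk1, Ldha and Pgk1, which fell. They are the 180 bases before the first listed RefSeq start, 5′ to 3′ in the gene's direction, from GRCm38.p6. Capitals mark the core of the hypoxia response element to which HIF binds, ACGTG or GCGTG, searched on both strands (as CACGT or CACGC on the other). A CACGTG box, which other factors also bind, holds ACGTG on each strand and counts as overlapping matches.
P4ha2, chr11:54100744-54100923, plus strand: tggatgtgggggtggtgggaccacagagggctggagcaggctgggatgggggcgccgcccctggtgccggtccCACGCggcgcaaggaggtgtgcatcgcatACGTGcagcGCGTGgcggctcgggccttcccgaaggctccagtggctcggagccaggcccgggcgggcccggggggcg
P4ha1, chr10:59323116-59323295, plus strand: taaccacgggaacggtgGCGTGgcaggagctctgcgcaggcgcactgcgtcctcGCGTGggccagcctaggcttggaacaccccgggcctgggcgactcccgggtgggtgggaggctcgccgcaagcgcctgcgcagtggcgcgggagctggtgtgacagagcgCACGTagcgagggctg
Bnip3, chr7:138909507-138909686, minus strand: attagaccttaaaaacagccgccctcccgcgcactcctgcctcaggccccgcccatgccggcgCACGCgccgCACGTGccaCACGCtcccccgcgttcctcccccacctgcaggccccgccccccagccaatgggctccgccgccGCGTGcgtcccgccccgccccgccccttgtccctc
Pdk1, chr2:71873044-71873223, plus strand: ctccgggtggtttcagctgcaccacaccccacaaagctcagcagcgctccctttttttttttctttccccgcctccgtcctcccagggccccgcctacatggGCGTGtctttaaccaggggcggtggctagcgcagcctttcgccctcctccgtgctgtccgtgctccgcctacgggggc
Ldha, chr7:46845624-46845803, plus strand: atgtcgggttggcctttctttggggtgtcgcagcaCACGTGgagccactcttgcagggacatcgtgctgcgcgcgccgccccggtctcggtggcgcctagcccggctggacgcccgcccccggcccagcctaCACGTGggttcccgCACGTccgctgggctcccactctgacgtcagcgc
Pgk1, chrX:106186920-106187099, plus strand: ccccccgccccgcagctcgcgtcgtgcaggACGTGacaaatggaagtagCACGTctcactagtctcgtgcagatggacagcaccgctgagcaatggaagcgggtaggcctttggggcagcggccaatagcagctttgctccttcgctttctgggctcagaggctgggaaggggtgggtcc
The stretches shown hold 3 matches for P4ha2, 3 for P4ha1, 5 for Bnip3, 1 for Pdk1, 5 for Ldha and 2 for Pgk1, so both directions of change occur beside the same letters. In the 300-base windows of the RefSeq table, from 250 bases before to 50 after a start, the core was present in 41 of 52 member windows (78.8%) and in 43.8% of all 32851 windows. By gene, 32 of the 34 members in that table had it in at least 1 window, against 46.7% of all 27025 genes. Each core holds the letters CG, and the windows were not matched for base composition. The members also include genes listed because they are HIF targets. A match describes these letters only and is not a bound site. Slc2a3 and Ndrg1 are not in that table.

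Vegfa, the vascular growth factor, rose with Tnrc6a in both genotypes. In Cas9 cells, Vegfa stood at 5.07, 6.05 and 6.04 RPKM in control and 4.68, 4.71 and 4.14 RPKM in Trim71-/- libraries, and in Tnrc6a cells at 10.7, 11.5 and 10.7 RPKM and 11.6, 11.6 and 10.3 RPKM. The Tnrc6a libraries lay above 10 RPKM and the Cas9 libraries below 7 RPKM. On the log2 scale the difference was 0.94 ± 0.07 in control and 1.31 ± 0.07 in Trim71-/- cells (adjusted p = 3.92e-16 and 1.7e-20). Without Trim71 it fell with Cas9 by 0.34 ± 0.07 (adjusted p = 0.000307), and with Tnrc6a the difference was 0.03 ± 0.06 and did not pass.

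Adm, the peptide hormone adrenomedullin, was near the limit of counting with Cas9. It had 1, 1 and 5 counts in the Cas9 control and 7, 2 and 2 counts in the Cas9 Trim71-/- libraries, against 29, 45 and 42 counts in Tnrc6a control and 39, 27 and 15 counts in Tnrc6a Trim71-/- libraries. In Cas9 cells, Adm stood at 0.0237, 0.0312 and 0.119 RPKM in control and 0.145, 0.0511 and 0.0569 RPKM in Trim71-/- libraries, and in Tnrc6a cells at 0.623, 0.998 and 0.860 RPKM and 0.868, 0.614 and 0.365 RPKM. All Tnrc6a libraries were above all Cas9 libraries. The fitted log2 fold change came to 3.72 ± 0.50 in control and 2.76 ± 0.48 in Trim71-/- cells (adjusted p = 2.13e-08 and 3.53e-06), and its size rests on the few counts with Cas9. On the scale of log2(RPKM + 1), which damps low genes, it was 0.78 and 0.56.

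Ndrg1, a stress-induced gene of differentiation, had the largest interaction, the change of the genotype difference with the construct, among the 7 members called for it. That of Adm, which rests on few counts, was larger at -0.96 ± 0.84 and did not pass (adjusted p = 0.592). In Cas9 cells, Ndrg1 stood at 0.878, 0.943 and 1.04 RPKM in control and 1.06, 0.953 and 1.15 RPKM in Trim71-/- libraries, and in Tnrc6a cells at 1.35, 1.52 and 1.57 RPKM and 0.907, 1.03 and 1.11 RPKM. Tnrc6a control libraries stood above all others, and the remaining groups overlapped. The genotype difference was 0.14 ± 0.12 with Cas9, which did not pass, and -0.54 ± 0.11 with Tnrc6a (adjusted p = 8.21e-05). The test of the difference between these gave -0.68 ± 0.16 (adjusted p = 0.00504).

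Ankrd37, an ankyrin repeat gene known as a HIF target and on chromosome 8, rose without Trim71 with Cas9. In Cas9 cells, Ankrd37 stood at 1.60, 1.81 and 1.28 RPKM in control and 2.59, 2.26 and 2.36 RPKM in Trim71-/- libraries, and in Tnrc6a cells at 1.54, 1.35 and 1.27 RPKM and 1.48, 1.36 and 1.54 RPKM. Cas9 Trim71-/- libraries lay above all others, which overlapped. The log2 fold change was 0.64 ± 0.18 (adjusted p = 0.00336), 0.15 above the median of its chromosome, and 0.07 ± 0.18 with Tnrc6a, which did not pass and lay at -0.44 relative to that median. With Tnrc6a in Trim71-/- cells it fell by 0.73 ± 0.17 (adjusted p = 0.000358), and the interaction of -0.57 ± 0.25 did not pass.

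Mxi1, a repressor that opposes Myc, fell without Trim71. In Cas9 cells, Mxi1 stood at 4.22, 4.16 and 4.30 RPKM in control and 3.34, 3.13 and 2.88 RPKM in Trim71-/- libraries, and in Tnrc6a cells at 4.10, 3.82 and 3.93 RPKM and 2.75, 2.64 and 2.72 RPKM. Each Trim71-/- library was below each control library. It differed by a log2 fold change of -0.44 ± 0.07 with Cas9 and -0.55 ± 0.07 with Tnrc6a (adjusted p = 1.42e-06 and 8.89e-09). With Tnrc6a in Trim71-/- cells it gave -0.21 ± 0.07, a call lost without Cas9 Trim71-/- replicate 1 (-0.15, adjusted p = 0.0912). Kdm3a, a histone H3 demethylase induced by HIF, averaged 17 ± 0.0330 RPKM in Cas9 control cells and fell by 0.21 ± 0.04 and 0.18 ± 0.05 without Trim71 and by 0.35 ± 0.04 and 0.32 ± 0.05 with Tnrc6a. Higd1a, a small mitochondrial protein induced by hypoxia, gave -0.002 ± 0.07 and -0.01 ± 0.07 without Trim71 and fell with Tnrc6a by 0.19 ± 0.06 and 0.19 ± 0.07. Those calls of Higd1a were lost without Tnrc6a control replicate 2 in control cells (-0.14, adjusted p = 0.105) and without Cas9 Trim71-/- replicate 3 in Trim71-/- cells (-0.13, 0.0958).

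**Figure D4:**
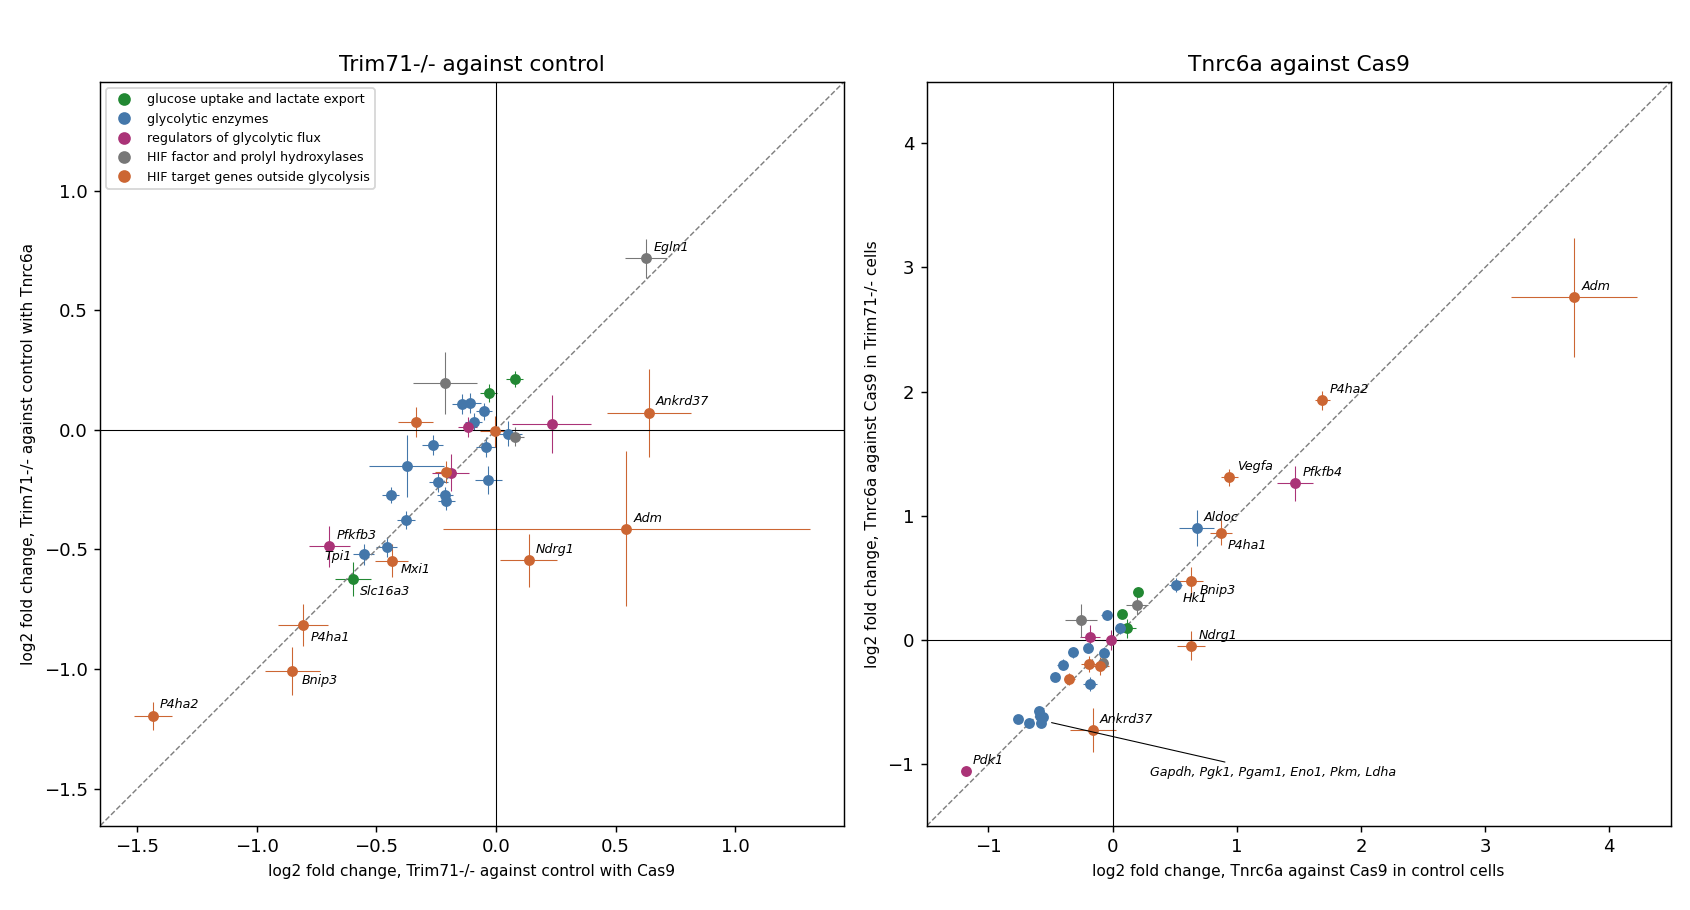
Log2 fold change of the 36 members, with standard errors, in Trim71-/- against control cells with Cas9 and with Tnrc6a (left), and for the effect of Tnrc6a in either genotype (right); the axes of a panel share no libraries, the dashed line marks equal values, and colours give the role. P4ha2, Bnip3 and P4ha1 lie at the lower left and Egln1 at the upper right of the left panel, and Ndrg1 lies off the dashed line in both.

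The interaction, which asks whether the genotype difference with Tnrc6a differs from that with Cas9, was higher for 6 of 36 members (16.7%), where 4.68% of all genes tested were, and lower for 1 (2.78%), where 2.25% were. Over all genes, 958 calls were higher and 461 lower, and with relative log expression factors 768 were higher and 613 lower. Besides Ndrg1, the genotype difference was more positive with Tnrc6a than with Cas9 for Vegfa, Ldhb, Pfkp, Hk2, Slc2a1 and Aldoa, by 0.17 to 0.37 on the log2 scale. Stem cell markers had 6 of 9 interaction calls, all higher, and endoderm markers 1 higher and 3 lower of 14. The number of members with a higher interaction fell from 6 to 1 without Tnrc6a control replicate 1 or Tnrc6a Trim71-/- replicate 2, to 2 without Tnrc6a control replicate 2, and to 3 without Tnrc6a Trim71-/- replicate 1.

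Several members have near-identical copies elsewhere in the genome, and reads from both may be split between them. With at least 95% identity over at least 300 bases of the transcript, 10 members had such copies in the table. Copies of Gapdh, 75 in the table, held 85.8% to 86.3% of the counts of the family in every library. The level of Gapdh is uncertain in comparison with other genes for that reason. Those of Eno1 and Pgk1 are too, and so is the rank of Aldoa above Eno1. The mean share was 53.1% to 53.6% for the 3 copies of Eno1 and 48.9% to 50.2% for the 4 of Pgk1 across the groups. It was 23.8% to 25.1% for Pgam1, 17.7% to 18.7% for Ldhb, 12.9% to 13.2% for Pkm, 7.96% to 8.66% for Gpi1, 3.37% to 3.58% for Tpi1 and 3.37% to 3.47% for Ldha. For these 9 genes the shares differed little between groups. For the 3 copies of Bnip3 it was 21.5% in Cas9 control, 27.2% in Cas9 Trim71-/-, 18.9% in Tnrc6a control and 30.6% in Tnrc6a Trim71-/- libraries, higher in the Trim71-/- groups. With the copies summed into each gene, the call of Gpi1 in Trim71-/- cells with Cas9 was lost (adjusted p = 0.0674), and all other calls of these 10 genes in the 5 comparisons were on the same side of the threshold.

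**Figure D5:**
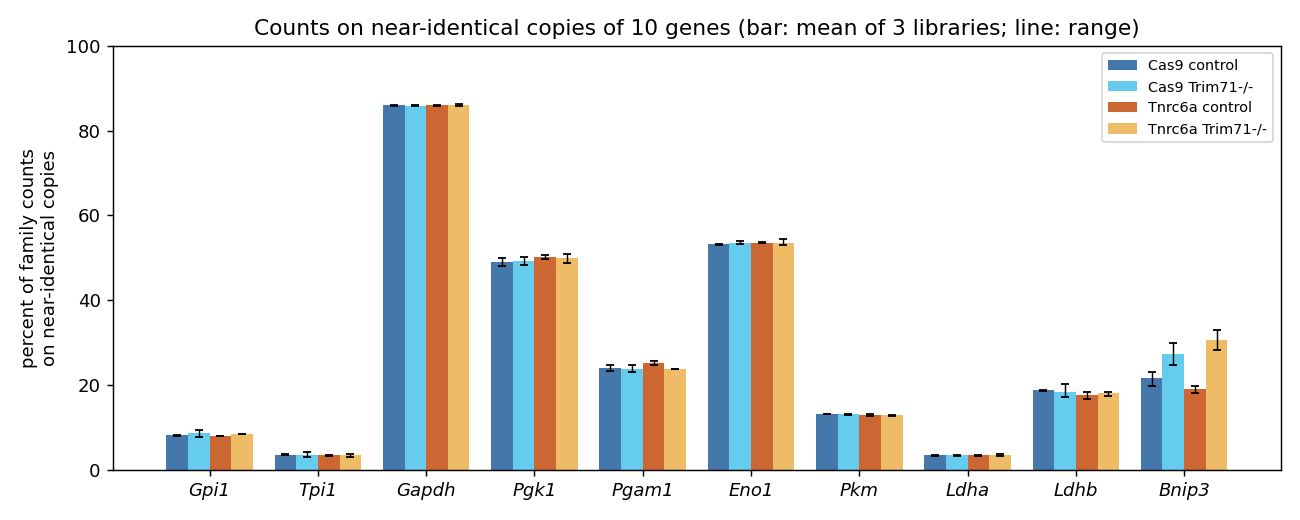
Share of the counts of a gene family that fell on near-identical copies of the gene, for the 10 members with such copies; bars are means of 3 libraries, lines the range, and colours the groups. Gapdh copies hold about 86% in every group, and only for Bnip3 do the bars spread, from 18.9% to 30.6%.

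Some members also overlap exons of other genes, and whether the counting used strand is not given in the sources used here. Of the exonic bases, Bnip3 shares 504 of 2265 with Gm45507, Ankrd37 349 of 1539 with Lrp2bp, Higd1a 683 of 3040 with Gm47112, Ndrg1 419 of 6596 with Gm17035 and Gpi1 741 of 6452 with Gm26762, each on the opposite strand. Pkm shares 767 of 5001 with Gm49759, Pfkm 341 of 3340 with Gm26513 and Hif1a 148 of 5896 with Gm49321, each on the same strand. Without strand, reads of the pairs on opposite strands cannot be told apart. For the pairs on the same strand, knowing the strand would not part the reads either.

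Glycolysis genes outside the 36 were called in both directions. Of 23 tested, 4 rose (17.4%) and 5 fell (21.7%) in Trim71-/- cells with Cas9, near the 17.1% and 19.1% of all genes. With Tnrc6a 5 rose (21.7%, against 20.0%) and 9 fell (39.1%, against 19.0%). With Tnrc6a against Cas9, 8 rose (34.8%, against 30.4%) and 5 fell (21.7%, against 33.1%) in control cells, and 9 rose (39.1%, against 32.0%) and 7 fell (30.4%, against 30.9%) in Trim71-/- cells. Hkdc1, a hexokinase-like gene at a mean of 1.13 CPM, fell without Trim71 by 3.82 ± 0.67 and 3.93 ± 0.34 on the log2 scale and rose with Tnrc6a by 2.55 ± 0.29 and 2.44 ± 0.81. Its level was 0.116 ± 0.0662 RPKM in Cas9 control and 0.00734 ± 0.00668 RPKM in Cas9 Trim71-/- libraries. In Tnrc6a Trim71-/- libraries it was 0.0458 ± 0.0151 RPKM. The sizes of its changes in all 4 comparisons thus rest on few reads. Eno2, the neuronal enolase, rose with Tnrc6a by 1.46 ± 0.14 and 0.73 ± 0.14, against the fall of Eno1. Slc2a4, the insulin-regulated glucose transporter, rose by 0.92 ± 0.17 and 0.75 ± 0.17, and Pdk4, a further pyruvate dehydrogenase kinase, rose by 1.32 ± 0.09 in Trim71-/- cells, against the fall of Pdk1. Pgm1 fell by 0.69 ± 0.08 without Trim71 with Cas9.

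Of 14 other genes of the HIF pathway, 5 rose (35.7%, against 17.1% of all genes) and 4 fell (28.6%, against 19.1%) without Trim71 with Cas9, and 2 rose (14.3%, against 20.0%) and 6 fell (42.9%, against 19.0%) with Tnrc6a. With Tnrc6a against Cas9, 4 rose (28.6%, against 30.4%) and 7 fell (50%, against 33.1%) in control cells, and 4 rose (28.6%, against 32.0%) and 9 fell (64.3%, against 30.9%) in Trim71-/- cells. Epas1, the HIF-2 alpha subunit, fell by 1.20 ± 0.05 in control and 0.80 ± 0.06 in Trim71-/- cells with Tnrc6a, and by 0.53 ± 0.05 without Trim71 with Cas9. Elob, a subunit of the ubiquitin ligase that destroys HIF, fell with Tnrc6a by 0.66 ± 0.06 and 0.70 ± 0.06, and Rbx1 of the same ligase by 0.49 ± 0.05 in Trim71-/- cells. Arnt, the constitutive partner of HIF alpha subunits, fell by 0.36 ± 0.04 without Trim71 with Tnrc6a.

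Of 37 other HIF target genes tested, 18 fell (48.6%, against 19.1% of all genes) and 5 rose (13.5%, against 17.1%) without Trim71 with Cas9, and 20 fell (54.1%, against 19.0%) and 6 rose (16.2%, against 20.0%) with Tnrc6a. Their median log2 fold change was -0.18 and -0.26, beside -0.01 and 0.00 (0.0025) over all genes. With Tnrc6a against Cas9, 21 rose (56.8%, against 30.4%) and 9 fell (24.3%, against 33.1%) in control cells, and 19 rose (51.4%, against 32.0%) and 9 fell (24.3%, against 30.9%) in Trim71-/- cells. The median was 0.29 and 0.24, beside -0.02 and 0.02 over all genes. Flt1, a receptor of Vegfa, fell by 1.79 ± 0.22 and 1.82 ± 0.14 without Trim71, and Ak4, a mitochondrial adenylate kinase, fell by 1.17 ± 0.05 with Cas9. Ddit4, an inhibitor of mTORC1, rose by 2.18 ± 0.06 and 2.2 ± 0.06 with Tnrc6a, and Plin2, a lipid droplet protein, by 2.30 ± 0.06 in control cells. Many of these genes also respond to signals other than hypoxia.

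Among pathways that branch from glycolysis, the 8 genes of the pentose phosphate pathway had 5 that rose (62.5%, against 17.1% of all genes) and 1 that fell (12.5%, against 19.1%) without Trim71 with Cas9, and 4 that rose (50%, against 20.0%) and 1 that fell (12.5%, against 19.0%) with Tnrc6a. With Tnrc6a against Cas9, 2 rose (25%, against 30.4%) and 5 fell (62.5%, against 33.1%) in control cells, and 2 rose (25%, against 32.0%) and 4 fell (50%, against 30.9%) in Trim71-/- cells. Tkt, transketolase, rose by 0.25 ± 0.04 and 0.24 ± 0.04 without Trim71 and fell by 0.53 ± 0.04 and 0.53 ± 0.04 with Tnrc6a. Pgls rose by 0.34 ± 0.07 without Trim71 with Cas9 and lies on chromosome 8, whose median was 0.49 in that comparison. Of 11 genes of pyruvate entry into mitochondria, 5 rose (45.5%, against 17.1%) and 1 fell (9.09%, against 19.1%) without Trim71 with Cas9, and 6 rose (54.5%, against 20.0%) and 2 fell (18.2%, against 19.0%) with Tnrc6a. Their median log2 fold change was 0.08 and 0.14, and Pdp2 and Pdpr lie on chromosome 8, whose median was 0.49 and 0.52. Pcx, pyruvate carboxylase, rose by 0.34 ± 0.05 and 0.52 ± 0.05, and Dlat, of the pyruvate dehydrogenase complex, by 0.25 ± 0.04 and 0.29 ± 0.04. With Tnrc6a against Cas9, 2 rose (18.2%, against 30.4%) and 3 fell (27.3%, against 33.1%) in control cells, and 2 rose (18.2%, against 32.0%) and 5 fell (45.5%, against 30.9%) in Trim71-/- cells. Pdha1, the catalytic subunit of pyruvate dehydrogenase that Pdk1 phosphorylates, fell by 0.41 ± 0.04 and 0.28 ± 0.04.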

How the data were processed

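The 12 libraries are stranded total RNA libraries of mouse stem cells, per the labels' protocols. Per the submitters' processing notes, bcl2fastq 2.20 and STAR 2.7.3a were used with the builds GRCm38 and mm10. How reads were counted (tool, annotation, use of strand) is not given in the sources used here. Deposited by the authors were raw counts per gene, RPKM values and a gene length in bases (another unit, per the file headers). The deposited RPKM follow from the counts, that length and a constant per library, which was 0.935 to 1.08 of its total, so they carry a scaling of their own.

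Levels here are the deposited RPKM, and levels are compared between genes per length only. Fold changes and tests come from the counts, in R 4.3.3 with edgeR 4.0.16 (filterByExpr by group, TMM factors, robust quasi-likelihood fit of 4 group means to all 12 libraries). Adjusted p values are Benjamini-Hochberg over 20486 genes, two-sided, with a threshold of 0.05. The fit was tested on simulated data. Alternatives used limma 3.58.1 and DESeq2 1.42.0. Near-identical copies were found with blastn 2.17.0 in GENCODE M21 transcripts (GRCm38), from which exon overlaps were also read. Promoters are from RefSeq (GRCm38.p6). The symbol Aldoa stands on a second identifier in the reference, with 0.725 to 1.52 RPKM, which was not used.

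All 36 members are named. Those with an adjusted p under 0.05 and a log2 fold change of at least 0.5 in size in any of the 4 comparisons have the value of each library. Of other lists, up to 4 genes with the largest change and a mean of at least 1 CPM could be named per comparison. The members and lists were chosen with earlier results of these data known. Intervals of counting were not computed. Few reads limit Adm and, outside the members, Hkdc1. Some other members also had modest counts, such as 51 to 119 per library for Ankrd37.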

Additional observations from a re-analysis of the deposited data

Results flagged for a closer look

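For 7 of the 36 members the genotype difference with Tnrc6a differed from that with Cas9 by the interaction test of edgeR (Benjamini-Hochberg over 20486 genes). No group has more than 3 libraries, so single libraries were not tested for standing apart. The largest was that of Ndrg1, at -0.68 ± 0.16 (SE) on the log2 scale (adjusted p = 0.00504), and this call was on the same side of the threshold in all alternatives run.

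Vegfa differed by 0.37 ± 0.10 (adjusted p = 0.0118). The call was lost without Cas9 control replicate 3 (0.32, adjusted p = 0.0564), Tnrc6a control replicate 1 (0.31, 0.0686) or Tnrc6a Trim71-/- replicate 2 (0.30, 0.0846). Ldhb differed by 0.25 ± 0.06 (adjusted p = 0.00494), which was lost without Tnrc6a Trim71-/- replicate 2 (0.19, 0.0684). Pfkp differed by 0.22 ± 0.06 (adjusted p = 0.0195), lost without Cas9 Trim71-/- replicate 2 (0.18, 0.0802), Tnrc6a control replicate 1 (0.19, 0.0808) or 2 (0.17, 0.133), or Tnrc6a Trim71-/- replicate 3 (0.18, 0.0932).

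Hk2 differed by 0.20 ± 0.06 (adjusted p = 0.0329). That call was lost without any 1 of 8 libraries, namely Cas9 control replicates 1 and 3, Cas9 Trim71-/- replicate 1, Tnrc6a control replicates 1 to 3, and Tnrc6a Trim71-/- replicates 1 and 2 (0.14 to 0.20, adjusted p from 0.059 to 0.218). Slc2a1 differed by 0.18 ± 0.05 (0.185, adjusted p = 0.0177), lost without any 1 of Cas9 control replicate 2, Cas9 Trim71-/- replicate 2, Tnrc6a control replicates 1 and 2, or Tnrc6a Trim71-/- replicates 1 and 2 (0.13 to 0.17, adjusted p from 0.058 to 0.192). Aldoa differed by 0.17 ± 0.05 (adjusted p = 0.0237), lost without any 1 of Cas9 control replicate 1, Cas9 Trim71-/- replicate 1, Tnrc6a control replicates 1 to 3, or Tnrc6a Trim71-/- replicates 1 and 2 (0.13 to 0.16, adjusted p from 0.064 to 0.145).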

How the results depend on the processing

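Of 3224 values of single members under other settings, 2966 kept their direction and side of the threshold, 93 changed sign without a call in either setting, 117 were no longer past the threshold, 48 came past it and 0 were reversed. The number of members higher in Trim71-/- cells with Cas9, 2, was 1 without chromosome 8 genes. That setting leaves out both Egln1 and Ankrd37, and the 1 was Slc2a3, newly called at 0.10 (edgeR, adjusted p = 0.0305). With Tnrc6a, 5 became 3 with relative log expression factors, upper-quartile factors, DESeq2 and limma on log2(RPKM + 1). The members with a higher interaction, 6, became 1 with limma on log2(RPKM + 1). With each library left out in turn, these counts ran from 2 to 4, from 3 to 4 and from 1 to 6. The cause was not tested. Calls of Pfkl for Tnrc6a against Cas9 in Trim71-/- cells and of Pfkfb3 for Tnrc6a against Cas9 in control cells were lost under several settings. So were calls of Pfkp in all but Tnrc6a against Cas9 in control cells, and of Gpi1 and Ldhb between genotypes. Folds of genes near 1 RPKM, such as Adm, Pfkfb4 and Ndrg1, were smaller on log2(RPKM + 1), which understates low genes. Summing near-identical copies was added after the data were seen.

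Replicate numbers were not treated as a pairing: same-numbered libraries had correlated deviations of -0.116 to 0.145, over 0.1 in all 3 pairs of no comparison. With the replicate block, members higher and lower were 2 and 18 without Trim71 with Cas9, 4 and 16 with Tnrc6a, 10 and 14 for Tnrc6a in control and 12 and 17 in Trim71-/- cells, and 6 and 1 for the interaction.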
